A study of Mus musculus with 444 samples.

Results

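Transcripts of 6 transcription factors tied to the luminal lineage, Gata3, Elf3, Elf5, Ehf, Grhl2 and Myb, were followed in single cells of the mouse mammary epithelium. The genes were chosen by name and matched through their Entrez identifiers among the 25136 genes kept. Their levels were read in 323 of 444 sequenced cells, those with at least 100000 read pairs and 1500 detected genes, and were compared between puberty and adulthood and between cells with markers of luminal progenitors and of mature luminal cells. The cells were total epithelium of FVB/NJ mice, an inbred strain, labelled Puberty (171 retained of 221) or Adult (152 of 223), with no treatment at either stage. Cells negative for blood and endothelial surface markers were sorted, captured one by one on the Fluidigm C1 microfluidic system and checked under a microscope by the study. The labels name no animal, so each stage stands as 1 sample and no difference between stages has a replicate check.

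The ducts and alveoli of the mammary gland are lined by luminal cells, which rest on basal myoepithelial cells. Luminal progenitors, many of them hormone receptor-negative and the source of the secretory alveoli, are told apart from mature luminal cells, which include the cells that sense oestrogen and progesterone. GATA3 is the zinc-finger factor required to form and keep luminal cells, ELF5 is the ETS-family factor that drives progenitors toward secretory alveoli, and EHF and ELF3 are its close epithelial relatives. GRHL2 is a grainyhead factor that maintains epithelial junctions, and MYB is a factor of proliferating progenitors in blood and in several epithelia that is also expressed in oestrogen receptor-positive breast tumours.

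In RefSeq on GRCm38.p6 (the assembly of mm10), the members lay on 4 chromosomes. Gata3 (identifier 14462) spans chr2:9857078-9887953 on the minus strand and Elf3 (13710) spans chr1:135253574-135258472 on the minus strand. Ehf (13661, chr2:103263431-103303275, minus strand) and Elf5 (13711, chr2:103412098-103450989, plus strand) point away from each other, with 108822 bases and no other protein-coding gene between them. Grhl2 (252973) spans chr15:37232821-37363569 on the plus strand and Myb (17863) spans chr10:21124930-21160984 on the minus strand. Exonic reads of Gata3 may be shared with 2 long non-coding genes that overlap its span, since the use of strand in the counting is not given in the sources used here. These were the noncoding RNA 4930412O13Rik, at 244 CPM in Puberty and 26.8 CPM in Adult, and 9230102O04Rik, at 3.92 and 6.45 CPM.

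RefSeq start-site windows were held for 4 of the 6 members, with 5 windows in all. Shown here, 5′ to 3′ on each gene's own strand, are the first 240 bases of the window upstream of the start for the member detected in the most cells (Gata3, chr2:9878611-9878850), for the one detected in the fewest (Elf5, chr2:103423818-103424057, the downstream of its 2 starts) and for the one with the most CG dinucleotides (Myb, chr10:21160995-21161234). The Gata3 window lies within the span of the gene given above, so it belongs to an inner start and not to the outermost one. CG dinucleotides are in capitals.
Gata3: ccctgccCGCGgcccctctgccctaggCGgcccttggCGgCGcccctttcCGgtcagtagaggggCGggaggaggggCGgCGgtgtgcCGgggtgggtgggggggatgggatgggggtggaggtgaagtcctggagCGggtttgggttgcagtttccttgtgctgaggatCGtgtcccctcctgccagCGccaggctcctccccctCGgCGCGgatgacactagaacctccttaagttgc
Elf5, downstream start: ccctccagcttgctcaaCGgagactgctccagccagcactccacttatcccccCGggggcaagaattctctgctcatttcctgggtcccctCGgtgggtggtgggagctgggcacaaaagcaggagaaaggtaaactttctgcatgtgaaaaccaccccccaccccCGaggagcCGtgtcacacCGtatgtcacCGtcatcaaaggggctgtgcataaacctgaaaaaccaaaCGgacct
Myb: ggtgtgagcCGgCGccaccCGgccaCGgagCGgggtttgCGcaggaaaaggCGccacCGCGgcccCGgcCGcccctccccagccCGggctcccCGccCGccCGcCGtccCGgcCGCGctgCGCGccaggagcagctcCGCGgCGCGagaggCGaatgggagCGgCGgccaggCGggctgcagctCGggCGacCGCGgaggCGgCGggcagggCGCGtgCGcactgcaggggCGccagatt

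The Gata3 window held 16 CG dinucleotides, that of Elf5 held 8 and that of Myb 39, against a median of 5 over the 32851 windows in the table. The upstream Elf5 window held 2 and that of Elf3 held 7. A count of 10 or more was found in 36.4% of all windows. The order of the CG counts was not the order of detection described next, since Myb, with the most, was read in few cells.

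Read counts were thinned to 100000 per cell so that all cells had 1 depth, and 1 read is then 10 CPM (counts per 1000000 reads). Summed over the 323 cells and divided by transcript length, Gata3 was the highest at 163 RPKM (CPM per kilobase of transcript). Ehf at 57.4 and Elf3 at 44.9 RPKM followed, then Myb at 11.6, Grhl2 at 9.15 and Elf5 at 5.35 RPKM. Intervals given below are exact 95% intervals (Poisson for sums, Clopper-Pearson for shares, conditional binomial for ratios). They cover counting error only, and reads copied by PCR are not independent molecules, so the spread between animals or captures is not in them. The length-scaled levels of Myb and Grhl2 were close, and a single cell held 52.9% of all Myb reads, so their order is not firm.

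The share of cells with a read gave another order. Gata3 was read in 302 of the 323 cells (93.5%, 90.2 to 95.9%), Grhl2 in 133 (41.2%, 35.8 to 46.8%) and Ehf in 130 (40.2%, 34.9 to 45.8%). Elf3 was read in 98 cells (30.3%), Myb in 48 (14.9%) and Elf5 in 23 (7.12%, 4.57 to 10.5%). In the cells that had them, reads of Grhl2 were few, with a median of 30 CPM, whereas those of Gata3 had a median of 285 CPM. No cell had reads of all 6 factors, and 8 pubertal and 3 Adult cells had reads of none.

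The retained cells held 100883 to 1354378 read pairs each, with a median of 309941 in Puberty and 331034 in Adult. A pair of features of these cells touches the results. Cells with Krt5 or Krt14, the keratins of basal cells, at 100 CPM or more made up 60 of 171 pubertal and 100 of 152 Adult cells. The Adult cells numbered 48 to 188 in their titles (107 retained) all had reads of the small nuclear RNA Rn7sk, against 8 of the 45 other Adult cells and 35 of 171 pubertal cells, and 81 of the 107 had a basal keratin against 19 of the 45. The labels do not say what these numbers stand for. The stage ratio of each member over all cells is therefore given against each of these Adult sets. Among markers of non-epithelial cells, the 4 immune markers together reached 1.23 CPM in Puberty and 7.43 CPM in Adult, and the 6 fibroblast markers reached 1269 and 1000 CPM. Of the fibroblast markers, 3 or more were read in 9.36% (Puberty) and 7.89% (Adult) of cells, with a median per cell of 0 and 10 CPM.

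**Figure D1:**
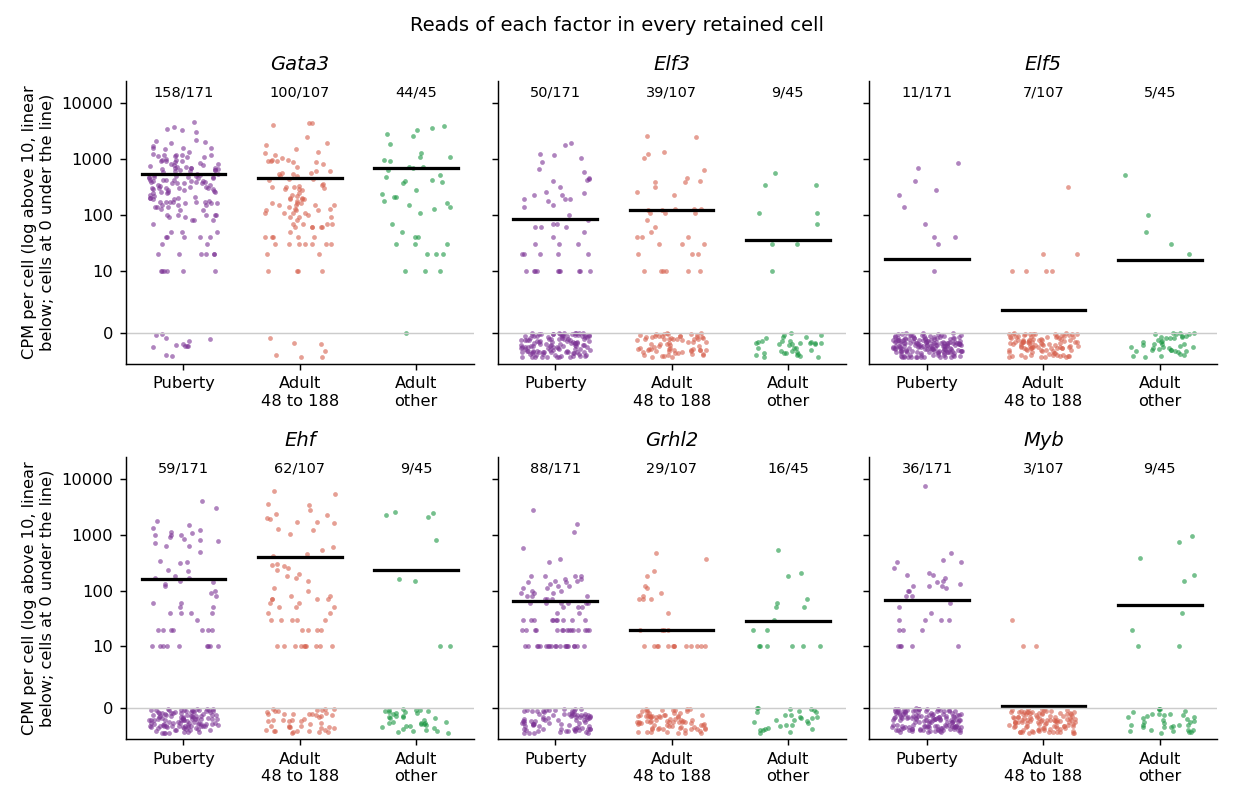
CPM of each factor in every retained cell, with 1 point per cell, for Puberty (purple), Adult cells 48 to 188 (red) and other Adult cells (green). The axis is logarithmic above 10 CPM and linear below it, cells with no read are spread under the 0 line, black bars are group means and the numbers are cells with a read over cells in the group. Gata3 was read in nearly every cell of each set, and Myb in 3 of the 107 red cells.

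Between the stages, in summed level, Gata3 was level, Grhl2 was higher in Puberty, and Ehf was higher in Adult. Myb was higher in Puberty than over all Adult cells, but the size of its difference depended on the Adult set. Of the 5 members that reached 20 CPM in a stage, 2 were at least 2-fold higher in Puberty, where 20.3% of the 7806 genes at that level were, and 1 was at least 2-fold lower, where 14.7% were. The median log2 ratio of the 5 was 0.03, and that of all 7806 genes was 0.09. The member counts are small, and this split is not apart from the background.

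Gata3 ran from 0 to 4520 CPM over the pubertal cells with a median of 300 CPM, and from 0 to 4480 CPM over the Adult cells with a median of 170 CPM. The summed levels were 530 CPM (519 to 541) and 521 CPM (509 to 532), giving a log2 ratio of 0.03 (-0.02 to 0.07). Reads were found in 92.4% of pubertal and 94.7% of Adult cells. The ranges overlapped almost wholly, and the ratio was 0.24 against the Adult cells 48 to 188 and -0.38 against the other Adult cells, so that its sign followed the Adult set.

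Grhl2 ran from 0 to 2790 CPM in Puberty with a median of 10 CPM, and from 0 to 530 CPM in Adult with a median of 0. Of 171 pubertal cells 88 had a read (51.5%, 43.7 to 59.2%), and of 152 Adult cells 45 did (29.6%, 22.5 to 37.5%). Its summed level was 65.7 CPM in Puberty and 22.3 CPM in Adult, a log2 ratio of 1.56 (1.38 to 1.74). The ratio was 1.74 against the Adult cells 48 to 188, 1.21 against the other Adult cells, and 1.39 when the top cell of either stage was set aside. The direction also held on both sides of the keratin split, at 1.22 in cells with a basal keratin and 1.77 in cells without. In shares of cells, the other Adult cells (16 of 45, 35.6%, 21.9 to 51.2%) lay nearer to Puberty, and their interval overlapped the pubertal one.

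Myb showed the widest gap between the Adult sets. It was read in 36 of 171 pubertal cells (21.1%, 15.2 to 27.9%), in 9 of the 45 other Adult cells (20.0%, 9.58 to 34.6%) and in 3 of the 107 Adult cells 48 to 188 (2.80%, 0.582 to 7.98%). Over those sets its summed level was 67.7, 55.1 and 0.467 CPM, the last from 5 reads. The log2 ratio of Puberty over all Adult cells was 2.02 (1.83 to 2.23). It was 7.18 against cells 48 to 188, and 0.30 against the other Adult cells. Pubertal cell 89, at 7460 CPM, held 64.4% of the pubertal reads, and with the top cell of either group set aside the 3 ratios were 1.20, 7.01 and -0.53. With all cells kept the ratio was above 0 against each Adult set, and it was below 0 only where the Adult cells 48 to 188 and the top cells were both left out.

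Ehf, one of the ETS factors, ran from 0 to 4080 CPM in Puberty and from 0 to 6070 CPM in Adult, with medians of 0. Reads were found in 59 pubertal cells (34.5%, 27.4 to 42.1%), while 71 Adult cells had them (46.7%, 38.6 to 55.0%). Its summed level was 160 CPM in Puberty and 355 CPM in Adult, a log2 ratio of -1.16 (-1.22 to -1.09). It was lower in Puberty against each Adult set, at -1.35 for cells 48 to 188 and -0.53 for the others. The shares went apart, however, with 62 of 107 cells (57.9%) in the first set and 9 of 45 (20.0%) in the second, below the pubertal share.

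Elf3 and Elf5 gave no settled stage difference. Elf3 was at 83.0 CPM in Puberty and 97.3 CPM in Adult, a log2 ratio of -0.23 (-0.33 to -0.12), with reads in 29.2% and 31.6% of cells. That ratio was -0.57 against the Adult cells 48 to 188 and 1.22 against the others. Elf5 was at 16.3 CPM (278 reads in 11 cells) in Puberty and 7.24 CPM (110 reads in 12 cells) in Adult, under the 20 CPM minimum in each stage. Its log2 ratio was 1.17 although 6.43% of pubertal and 7.89% of Adult cells had a read. It was 2.16 against the Adult cells 48 to 188 and 0.04 against the other Adult cells.

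**Figure D2:**
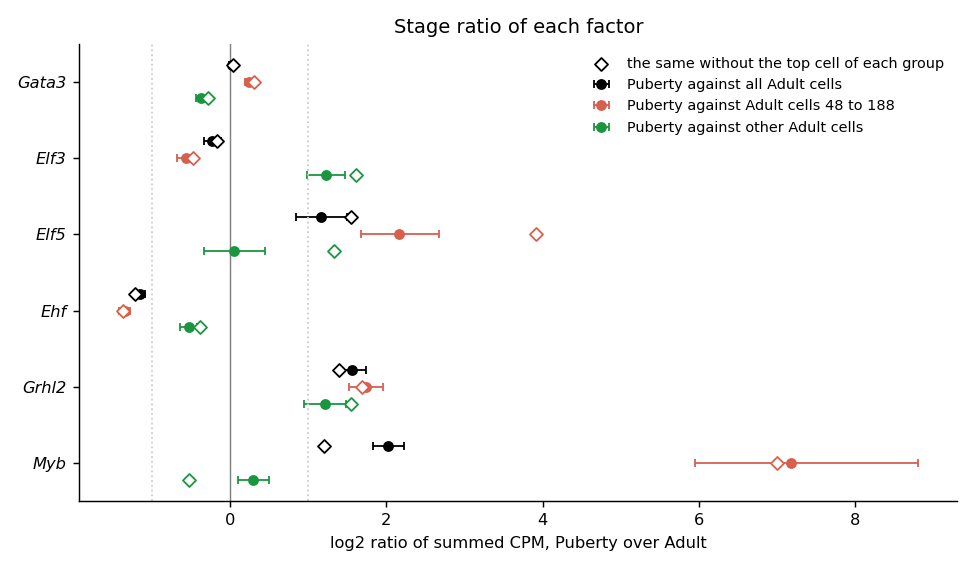
Log2 ratio of summed CPM, Puberty over Adult, for each factor against all Adult cells (black), Adult cells 48 to 188 (red) and the other Adult cells (green). Bars are exact 95% counting intervals, open diamonds leave out the highest cell of each group, and dotted lines mark a 2-fold difference. Grhl2 lay above 1 in all 3 comparisons, at 1.56, 1.74 and 1.21, Ehf lay below 0, and Elf3 changed sign.

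Related genes gave the setting. Of 18 paralogs of the members, 6 reached 20 CPM in a stage, and 2 of these were at least 2-fold higher in Puberty and 0 lower. They ran from the ETS factor Elf2 (36.9 against 12.2 CPM, log2 ratio 1.60) to the ETS repressor Etv6 (67.0 against 111 CPM, -0.73). Of 22 other luminal regulators, 16 reached the minimum, 2 were higher and 2 lower. Foxa1, the pioneer factor of oestrogen receptor binding, was at 135 against 52.9 CPM (1.36) and Id2, an inhibitor of helix-loop-helix factors, at 124 against 380 CPM (-1.61). Among 10 genes of epithelial junctions and surface, 3 were higher and 0 lower. They ran from the splicing factor Esrp2 (34.4 against 3.49 CPM, 3.30) to the claudin Cldn3 (135 against 221 CPM, -0.71). Of 8 basal regulators 7 reached the minimum, with 1 higher, Zeb2 (26.5 against 2.76 CPM, 3.26). Some of these values depended on the Adult set. Against the Adult cells 48 to 188 and the other Adult cells the ratio of Foxa1 was 2.30 and 0.26, that of Etv6 -1.11 and 1.08, and that of Cldn3 -1.04 and 0.63.

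Basal markers moved with stage, as 8 of 10 were at least 2-fold lower in Puberty, down to Krt14 at 363 against 1923 CPM. Against the other Adult cells 5 of 10 were. All 5 cycling markers that reached the minimum were at least 2-fold higher in Puberty, and 4 of 5 were against the other Adult cells. Of the fibroblast markers 4 of 5 were higher, but against the other Adult cells 1 of 6 was higher and 2 were lower. Cells with 2 or more of the 6 cycling markers (63 pubertal, 31 Adult) had Grhl2 reads in 54.0% of pubertal cells, against 50.0% of the other pubertal cells. For Ehf the shares were 47.6% and 26.9%, and for Myb 23.8% and 19.4%. In Adult the Myb shares were 6.45% and 8.26%. The pubertal levels lay further apart than the shares, at 138 against 26.5 CPM for Myb and 112 against 38.7 CPM for Grhl2, and pubertal cell 89, with most of the Myb reads, was among the cycling cells. The part of these markers in the stage ratios was not tested.

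Cells were then sorted by luminal markers. Kit, a receptor tyrosine kinase, and Ltf, the milk protein lactotransferrin, stood for progenitors, and Prlr, the prolactin receptor, and Cited1, a co-activator of oestrogen receptor targets, for mature luminal cells, each at 10 CPM or more before thinning. This gave 14 cells with a progenitor marker only, 209 with a mature marker only, 52 with both and 48 with neither. Prlr was at 10 CPM in 259 of 323 cells, so the mature class was broad, and 88 of its 209 cells carried a basal keratin. The 14 progenitor-class cells were 3 pubertal and 11 Adult, the latter all numbered within 48 to 188, and 8 of the 14 carried a basal keratin. In sums over the class, all 12 genes of the luminal progenitor list were at least 2-fold higher. Of the mature luminal list 9 of 10 were lower, where Kit, Ltf, Prlr and Cited1 were set by the sorting itself. After thinning, Ltf was at 14230 CPM in Adult cell 115 and 10900 CPM in pubertal cell 213. It was at 250 CPM or less in each of the 8 class cells with a basal keratin. The sums therefore do not show that each cell of the class was a progenitor.

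With the markers at 10 CPM, Elf3 was higher, and Gata3, Grhl2 and Myb were lower, in the progenitor class than in the mature class. Ehf differed in share more than in sum and Elf5 had too few reads to place. The directions of Elf3 and Grhl2 did not hold in all settings. Of the 5 members above 20 CPM in a class, 1 was at least 2-fold higher, where 20.1% of 7567 genes were, and 3 were at least 2-fold lower, where 46.9% were. The member median was -1.06 and that of all genes -0.78. With the markers at 100 CPM, the classes held 15 and 180 cells and 2 members were higher and 2 lower, where 20.7% and 44.4% of 7562 genes were, with medians of -0.62 and -0.65. The member counts are small here too, and neither split is apart from the background.

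Gata3 had a median of 70 CPM over the 14 progenitor-class cells (0 to 1780 CPM) and of 310 CPM over the 209 mature-class cells (0 to 4520 CPM). Its summed levels were 290 and 605 CPM, a log2 ratio of -1.06 (-1.21 to -0.92), with reads in 12 of 14 and in 200 of 209 cells. The ranges overlapped, and detection was high in each class. Along single markers, Gata3 went with Prlr, read in 95.8% of Prlr-positive and 84.4% of Prlr-negative cells at 594 and 250 CPM. In the 3 pubertal progenitor-class cells it was at 1610, 20 and 0 CPM.

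Ehf was read in 12 of 14 progenitor-class cells (85.7%, 57.2 to 98.2%), in 36 of 52 with both kinds of marker (69.2%, 54.9 to 81.3%), in 73 of 209 mature-class cells (34.9%, 28.5 to 41.8%) and in 9 of 48 with neither (18.8%, 8.95 to 32.6%). The sums did not follow, with 279 CPM in the progenitor class and 249 CPM in the mature class (log2 ratio 0.16), because few cells held most reads. Pubertal cell 164, at 3000 CPM, held 76.9% of the progenitor-class reads, and with the top cell of either class set aside the log2 ratio was -1.68. With the markers at 100 CPM, however, Ehf was at 620 CPM in the progenitor class and 247 CPM in the mature class (log2 ratio 1.33). Taken by single markers, Ehf was read in 34 of 41 Ltf-positive cells (82.9%, 67.9 to 92.8%) and in 96 of 282 Ltf-negative cells (34.0%, 28.5 to 39.9%). For Kit the shares were 70.6% and 34.6%. The Ltf gap stood in each stage, at 80.0% and 30.1% in Puberty and 84.6% and 38.9% in Adult, and within the Adult cells 48 to 188 at 84.6% and 49.4%.

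Elf5 was not read in any of the 14 progenitor-class cells, which allows a share of up to 21.4% when 3 cells are taken as the limit of a count of 0, and was read in 9 of 209 mature-class cells (4.31%) and in 11 of 52 with both kinds of marker (21.2%, 11.1 to 34.7%). It was read in 9 of 41 Ltf-positive cells (22.0%, 10.6 to 37.6%) and in 14 of 282 Ltf-negative cells (4.96%, 2.74 to 8.19%). In Puberty the level in Ltf-positive cells was 137 CPM against 4.68 CPM in Ltf-negative cells, from 4 of 15 cells. In Adult it was 2.69 CPM, 7 reads in 5 of 26 cells, against 8.17 CPM. The share with Ltf was thus higher in each stage, and the level in Puberty alone. With the markers at 100 CPM Elf5 was read in 3 of 15 progenitor-class cells, from 5 reads. Among the 23 cells with Elf5 reads, 16 had Ehf reads (69.6%), against 114 of the 300 others (38.0%).

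Elf3 was read in 11 of 14 progenitor-class cells (78.6%, 49.2 to 95.3%) and in 56 of 209 mature-class cells (26.8%, 20.9 to 33.3%), at 265 and 84.4 CPM (log2 ratio 1.65, 1.49 to 1.81). Adult cell 164, at 2550 CPM, held 68.7% of the progenitor-class reads, and with the top cell of either class set aside it was 0.29. In the 3 pubertal progenitor-class cells Elf3 was at 70, 0 and 0 CPM. The higher share was in the 11 Adult cells, of which 8 carried a basal keratin, and 7 of these 8 had Kit and Ltf at 100 CPM or less after thinning. With the markers at 100 CPM the shares were 40.0% and 31.1%.

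Grhl2 went the other way. It was not read in the 14 progenitor-class cells, against 32.6 CPM in the mature class. With 3 reads over the class taken as the floor, that is 15.2-fold lower. A single cell can hold that many reads, so the value is not a lower limit of the difference. Grhl2 was read in 93 of 209 mature-class cells (44.5%, 37.6 to 51.5%). The classes differed in stage, with 3 pubertal and 11 Adult cells in the progenitor class and 126 and 83 in the mature class. Within the mature class Grhl2 was read more often in pubertal than in Adult cells, as given below. The part of stage in the class gap was not tested. The gap did not hold in all settings, as Grhl2 was at 32.0 and 49.3 CPM in the classes set at 100 CPM, and at 103 CPM in cells with both kinds of marker, where pubertal cell 220 held 52.0% of the reads. By single markers, its reads were less frequent in Kit-positive cells (10 of 51, 19.6%, 9.82 to 33.1%) than in Kit-negative cells (123 of 272, 45.2%, 39.2 to 51.3%). These shares pool the stages, and 19 of the Kit-positive and 152 of the Kit-negative cells were pubertal. Within the stages the correlation of Grhl2 with Kit was weak, at -0.04 in Puberty and -0.13 in Adult.

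Myb went with the mature markers. All 48 cells with Myb reads had Prlr at 10 CPM or more, 41 had Cited1, and 0 of the 64 Prlr-negative cells had a read, which by the same limit of 3 cells allows a share of up to 4.69%. It was read in 41 of 140 Cited1-positive cells (29.3%, 21.9 to 37.6%) at 98.3 CPM, and in 7 of 183 Cited1-negative cells (3.83%, 1.55 to 7.72%) at 1.91 CPM. It was at 66.3 CPM in the mature class and 5.00 CPM in cells with both kinds of marker. The progenitor class had no read, which is 30.9-fold lower with the floor of 3 reads over the class. Of the 14 progenitor-class cells, 11 were among the Adult cells 48 to 188, where Myb was read in 3 of 107 cells. The class and that set cannot be told apart here. Pubertal cell 89 held 53.9% of the reads in the mature class. Of the Kit-positive cells, 1 of 51 had Myb, against 47 of the 272 Kit-negative cells. In Cited1-positive cells Myb was read in 33 of 100 in Puberty and 7 of 15 in the other Adult cells, but in 1 of 25 (4.00%, 0.101 to 20.4%) in the Adult cells 48 to 188.

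**Figure D3:**
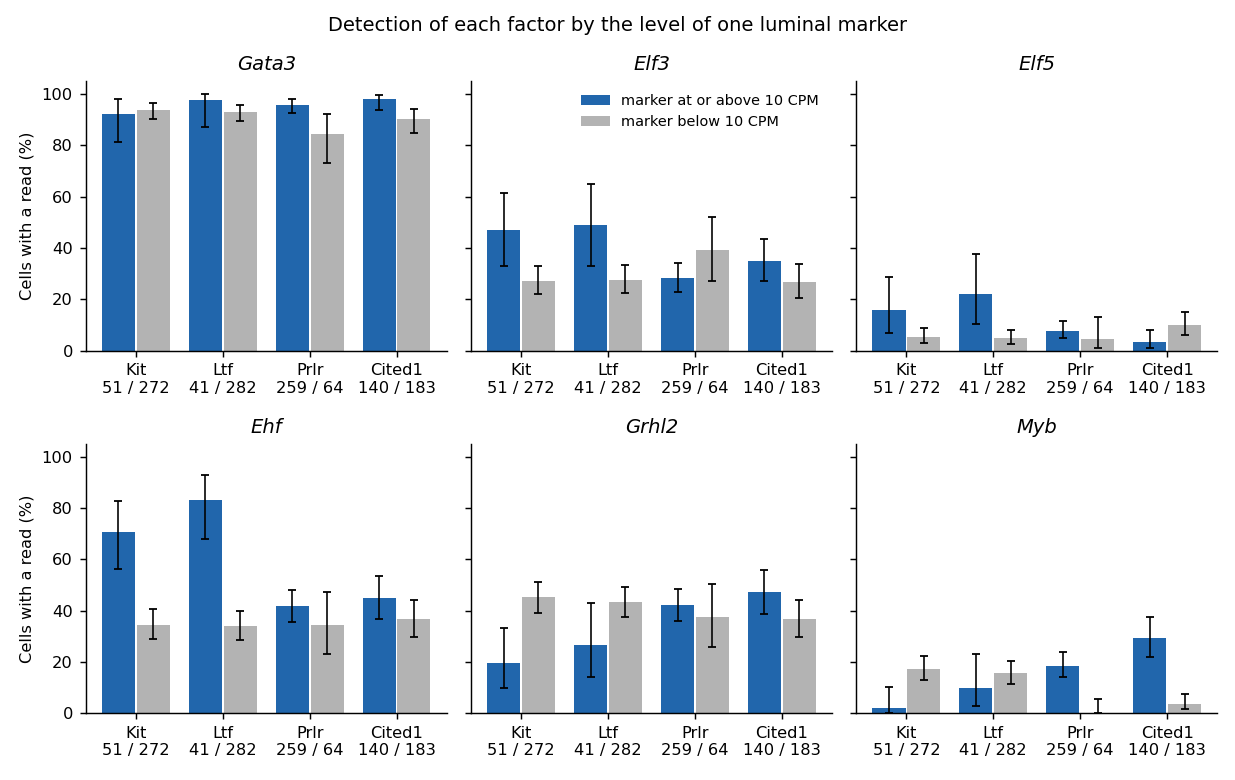
Share of cells with a read of each factor among cells with Kit, Ltf, Prlr or Cited1 at 10 CPM or more (blue) and below it (grey), with the number of cells of each kind under the marker. Error bars are exact 95% binomial intervals. Ehf was read in 82.9% of Ltf-positive cells against 34.0% of the others, and Myb in 29.3% of Cited1-positive cells against 3.83%.

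**Figure D4:**
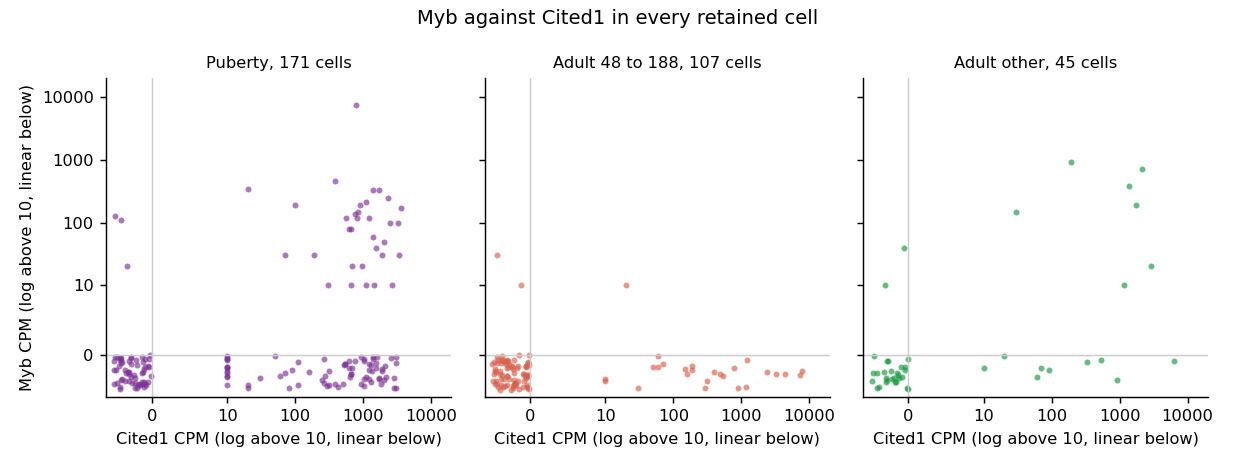
Myb CPM against Cited1 CPM in every retained cell, for Puberty, Adult cells 48 to 188 and the other Adult cells. The axes are logarithmic above 10 CPM and linear below it, with cells at 0 spread beyond the grey lines. Myb reads lay mostly at high Cited1 in Puberty and in the other Adult cells, and 25 Cited1-positive cells of the middle panel included 1 with a Myb read.

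Lists set beside the members in the class comparison gave the following. Among 6 paralogs above 20 CPM, 0 were at least 2-fold higher in the progenitor class and 1 lower, from Etv6 (92.9 against 53.1 CPM, log2 ratio 0.81) to the grainyhead gene Grhl1 (6.43 against 20.9 CPM, -1.70). Among 17 other luminal regulators, 5 were higher and 4 lower. Foxi1, a forkhead gene, had 31 reads in the progenitor class and 0 in the mature class, while Foxa1 had 0 reads in the former and was at 134 CPM in the latter. Of the 10 junction genes, 1 was higher and 4 were lower, from the claudin Cldn7 (431 against 151 CPM, 1.52) to the vesicle GTPase Rab25 (2.86 against 150 CPM, -5.71). Of 7 basal regulators, 0 were higher and 4 lower, down to Trp63, the p63 factor of basal cells, at 2.14 against 63.5 CPM. With the markers at 100 CPM, 1 basal regulator was higher and 2 were lower, with Trp63 at 57.3 against 41.3 CPM, and 4 junction genes were higher and 4 lower.

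Markers of other cells and of the cell cycle also differed between the classes. All 5 fibroblast markers above 20 CPM were at least 2-fold lower in the progenitor class, among them the collagen Col3a1 at 0.714 against 227 CPM. Kdr, a receptor of endothelial cells, had 0 reads there and was at 31.1 CPM in the mature class. Of 5 cycling markers 3 were lower, among them Mki67 with 0 reads against 82.4 CPM. Their part in the class ratios was not tested.

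Stage values within the classes followed those of all cells for 3 factors. In the mature class (126 pubertal, 83 Adult cells) the log2 ratio was -1.69 for Ehf, 0.74 for Grhl2 and 1.58 for Myb. The Myb value was 0.71 with the top cell of either stage set aside. For Gata3 it was -0.09, for Elf3 -0.05 and for Elf5 -1.07, the last against 1.17 in all cells. Grhl2 was read in 71 of 126 pubertal mature-class cells (56.3%, 47.2 to 65.2%) and in 22 of 83 Adult ones (26.5%, 17.4 to 37.3%). Against the other Adult cells of that class alone, the ratio was 0.19 for Grhl2 and 0.35 for Myb. In the progenitor class, with 3 pubertal and 11 Adult cells, the ratio was 1.30 for Gata3, 3.76 for Ehf and -3.83 for Elf3. With the top cell of either stage set aside it was -2.70 for Gata3 and -0.73 for Ehf, so that these values rested on single cells.

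Cells with a basal keratin were the check on the label luminal. Of the 5 members above 20 CPM, 0 were at least 2-fold higher in the 160 cells with Krt5 or Krt14 than in the 163 without, where 18.0% of 7816 genes were, and 3 were at least 2-fold lower, where 20.4% were. The member median was -1.43 and that of all genes -0.06. Myb (4.81 against 81.8 CPM, log2 ratio -4.09), Ehf (133 against 368 CPM, -1.47) and Elf3 (48.3 against 130 CPM, -1.43) were lower. Pubertal cell 89 held 55.9% of the Myb reads in cells without a basal keratin. The Adult cells 48 to 188, with 5 Myb reads, made up 81 of the 160 cells and 26 of the 163. With and without a basal keratin, Myb was read in 10.0% and 27.0% of pubertal cells. In the other Adult cells it was 0 of 19 and 9 of 26, and in cells 48 to 188 it was 2 of 81 and 1 of 26. The size of the Myb ratio is therefore not settled. Elf5, under 20 CPM, was at 4.88 and 19.0 CPM (-1.96). Gata3 was at 484 and 566 CPM (-0.23) and Grhl2 at 34.3 and 56.0 CPM (-0.71).

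Gata3 and Grhl2 were read about as often with basal keratins as without. Gata3 was read in 150 of 160 cells with a basal keratin (93.8%, 88.8 to 97.0%) and in 152 of 163 without (93.3%, 88.2 to 96.6%), and Grhl2 in 39.4% and 42.9%. In the 40 cells with a basal keratin and none of the 4 luminal markers, Gata3 was read in 37 (92.5%) at a median of 155 CPM, Grhl2 in 21 (52.5%), Ehf in 7 (17.5%) and Myb in 0. Within the Adult cells 48 to 188, Gata3 was at 514 CPM in the 81 cells with a basal keratin and 250 CPM in the 26 without, and Grhl2 at 24.9 and 3.46 CPM, the opposite direction to that in Puberty. Luminal keratins were also read in 95.6% of the cells with a basal keratin, so these cells were not free of luminal transcripts. The shares of Ehf, 38.1% with and 42.3% without, and of Elf3, 26.9% and 33.7%, were closer than the sums.

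In basal keratin cells, 7 of 10 junction genes and 5 of 17 other luminal regulators were at least 2-fold lower. The serine protease Prss8 (2.44 against 51.9 CPM, -4.41) and the oestrogen receptor Esr1 (9.19 against 65.4 CPM, -2.83) were the lowest of these lists. Of 6 paralogs, 0 were higher and 1 was lower, Grhl1 (4.13 against 37.5 CPM, -3.18). Of 6 basal regulators, 4 were higher, led by the helix-loop-helix inhibitor Id4 (52.1 against 4.85 CPM, 3.43). All 10 basal markers were higher and 9 of 10 mature luminal markers were lower.

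Across cells, correlations of log2(CPM + 10) describe which genes shared cells with each factor. They are over 171 pubertal and 152 Adult cells that share a stage and a depth, and most values are weak in these sparse counts. Gata3 had its highest marker value with Prlr, at 0.45 in Puberty and 0.21 in Adult. Ehf had 0.27 and 0.26 with Ltf and 0.30 and 0.38 with the luminal keratin Krt18. Myb had 0.32 and 0.31 with Cited1, and 0.31 and 0.29 with Prlr. Elf5 had 0.39 with Ltf in Puberty and 0.01 in Adult. Between members, the highest was Elf5 with Ehf, at 0.23 and 0.26.

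The genes most like each factor were sought among those read in at least 10% of the cells of each stage, by the lower of the 2 stage correlations. For Ehf they were Wfdc18 (0.37 in Puberty, 0.65 in Adult), which encodes a secreted whey acidic protein-domain protein, Plet1 (0.37 and 0.56), a surface protein of placenta and epithelia, and Trf (0.33 and 0.56), which encodes transferrin. Wfdc18 and Trf belong to the luminal progenitor list. For Myb they were Areg (0.38 and 0.43), the epidermal growth factor receptor ligand amphiregulin, Fgb (0.35 and 0.37), a fibrinogen chain, and Cited1 (0.32 and 0.31). In the Adult cells 48 to 188 those of Fgb and Cited1 with Myb were -0.05, where 3 cells had Myb reads. For Elf5 only the claudin Cldn1 reached 0.3, at 0.48 and 0.35. For Gata3, Elf3 and Grhl2 no gene reached it, and the closest were Nck2 at 0.29, Ppp1r2-ps2 at 0.27 and Fbxo38 at 0.21.

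**Figure D5:**
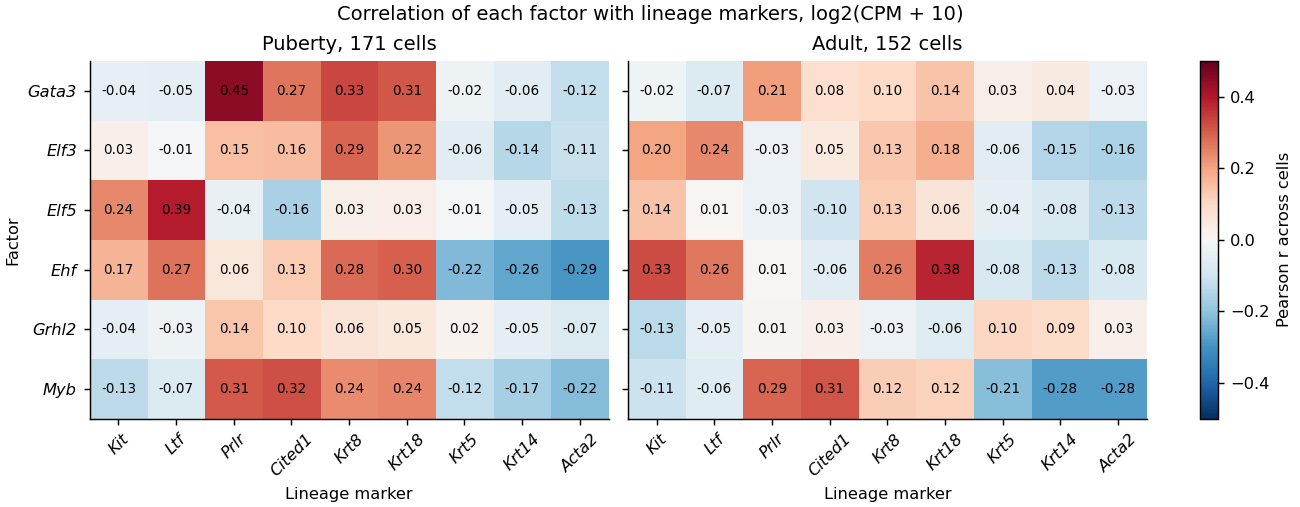
Pearson correlation across cells of each factor with 9 lineage markers, on log2(CPM + 10), in 171 pubertal cells (left) and 152 Adult cells (right). Red is positive and blue negative, with the value in each square. Myb and Gata3 had their highest values with Prlr or Cited1, and Ehf with Ltf, Kit and the luminal keratins.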

How the data were processed

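Single-cell cDNA of 444 mouse mammary epithelial cells had been sequenced as read pairs. The authors deposited raw counts per gene, 1 table per cell, made by alignment with Subread to mm10 and counting with featureCounts. Versions and strand use are not given in the sources used here. Cells with at least 100000 read pairs and 1500 genes were kept, fewer than the study shows. No doublet caller was run, since capture sites had been inspected by microscope. Of 27179 identifiers, 25275 matched RefSeq on GRCm38.p6, and those that did not held 1.84% of read pairs. The 15 mitochondrial genes and 124 genes of ribosomal proteins did not enter the totals.

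Counts were thinned to 100000 per cell (random seed 1) and summed. With 1 sample per stage no test was made. Differences are ratios of sums with exact conditional 95% intervals, and a group with 0 reads was set to a floor of 3 reads over the group. A gene entered a comparison at 20 CPM in a group and was called at a 2-fold difference. Basal keratin cells had Krt5 or Krt14 at 100 CPM. Named genes were the 6 members, the extremes of each list and up to 3 genes per member with a correlation of at least 0.3 in each stage. Where none reached it the closest is named. The members and lists were chosen with earlier results of these data known. Python 3.11.15, numpy 2.4.6, scipy 1.17.1 and pandas 2.3.3 were used, with edgeR 4.0.16 (TMM factors only) in R 4.3.3. Scripts were tested on simulated data. Alternatives in depth, cell filter, marker threshold, scaling and cells left out are in the closing section.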

Additional observations from a re-analysis of the deposited data

Results flagged for a closer look

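The progenitor-class over mature-class ratio went opposite ways in the stages for both ETS factors below, and the difference between stages was not tested. For Elf3 the log2 ratio was -1.83 in Puberty (23.3 against 83.2 CPM) and 1.94 in Adult (331 against 86.3 CPM). For Ehf it was 2.95 in Puberty (1023 against 132 CPM) and -2.50 in Adult (75.5 against 427 CPM). The pubertal progenitor class held 3 cells, with Elf3 at 70, 0 and 0 CPM and Ehf at 20, 3000 and 50 CPM. Without the highest cell of each class the Ehf ratio was -1.52 in Puberty and -2.63 in Adult.

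Reads of the factors were also present in the 121 cells below the limits on read pairs and genes, which entered no comparison. Gata3 was read in 55.4% of them, Ehf in 26.4%, Grhl2 in 10.7%, Elf3 in 9.09%, Myb in 4.13% and Elf5 in 1.65%, without thinning.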

How the results depend on the processing

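No paired analysis was possible because the labels name no animal and number cells, not replicates. With 1 sample per stage no replicate could be left out, and precision is set by few cells: the progenitor class held 14. Values are log2 ratios or counts of members higher in the first group, with medians over all members that had a ratio. Causes were not tested. By stage the sign held in 11 of 11 alternatives for Ehf (-2.21 to -0.53), Grhl2 (1.21 to 1.77), Myb (0.23 to 7.18) and Elf5 (0.04 to 2.16), in 10 for Elf3 and in 7 for Gata3. By class it held in 17 of 17 for Gata3 and Myb, in 15 for Grhl2 and in 14 for Elf3. For Ehf it held in 12 of 17 (-2.50 to 2.95) and for Elf5 in 11 of 14.

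By stage, the median of 0.60 became 0.16 with 200000 read pairs and 2500 genes needed, 0.32 with 10 CPM added, 0.99 against Adult cells 48 to 188, 0.17 against the other Adult cells and -0.05 in basal keratin cells (chosen after seeing the data). The count with a higher share of cells, 2, became 4 with another thinning seed, with 5 reads needed or against the other Adult cells, and 5 under the stricter filter.

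By class, 2 members had a higher sum, against 1 under the stricter filter, the looser one (50000 read pairs, 1000 genes), without the highest cells, without Adult cells 48 to 188 (which leaves the 3 pubertal progenitor-class cells) and within either stage. The median of -1.39 became -3.23 without thinning, -1.44 under the stricter filter, -1.71 without the highest cells, -1.64 without Adult cells 48 to 188, -1.52 with markers at 1 read, -3.20 with both markers needed, and -1.83 in Puberty and -2.21 in Adult. Elf3 reversed to -1.64 without Adult cells 48 to 188 and -1.83 in Puberty, both resting on the same 3 pubertal cells, and Elf5 to 0.24 with markers at 1 read. Alternatives chosen after seeing the data turned more signs. Progenitor-marker cells with or without a mature marker gave 4 members higher, a median of 0.78, Elf5 at 2.23 and Grhl2 at 1.32. Cited1 alone as mature marker gave a median of 0.08, Elf3 at -0.28, Elf5 at 4.12 and Grhl2 at 0.32.

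By stage in the progenitor class, the median of 1.30 became -0.44 under the stricter filter (Ehf -0.44), 0.73 under the looser one, -2.70 without the highest cells (Gata3 -2.70, Ehf -0.73), 0.00 with 10 CPM added, 1.00 with TMM scaling, -1.05 with markers at 100 CPM, -1.15 at 1 read (Gata3 -1.96, Ehf -1.15) and -2.81 with both markers (Gata3 -2.81). The count with a higher sum, 2, became 1 under the stricter filter or with both markers and 0 without the highest cells. The count with a higher share, 1, became 2 with another seed or markers at 1 read, 3 under the stricter filter and 0 with both markers.

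By stage in the mature class, 2 members had a higher sum, against 1 under the stricter filter. The median of -0.07 became -0.46 under that filter (Myb -0.20), -0.17 under the looser one, 0.10 without the highest cells, -0.16 with TMM scaling, 0.19 with markers at 1 read and 0.17 with both markers, where Elf5 was at 1.42.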

Other observations

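Members were also compared by the cells they shared. Ehf was read in 49 of the 98 cells with Elf3 reads and in 81 of the 225 others (36.0%), with 46.0% and 29.8% in Puberty and 54.2% and 43.3% in Adult. Grhl2 was read in 28 of the 48 cells with Myb reads (58.3%) and in 105 of the 275 others (38.2%). These shares were 63.9% and 48.1% in Puberty, 66.7% (2 of 3 cells) and 26.0% in the Adult cells 48 to 188, and 33.3% (3 of 9) and 36.1% in the other Adult cells, so the direction was not that of Puberty in the last set. All 23 cells with Elf5 reads had Gata3 reads. Reads of 3 members in 1 cell were found in 106 of the 323 cells, of 4 in 25 and of 5 in 8.

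Cells with 2 or more cycling markers had Elf3 reads more often, in 39.7% against 23.1% of pubertal cells and in 51.6% against 26.4% of Adult cells. For Ehf the shares in Adult were 61.3% and 43.0%, while its summed level was lower in those cells, at 186 against 399 CPM. All values here are descriptions without a test, and all cells were thinned to the same depth.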
